A study of Mus musculus with 25 samples.

Results

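The response of mouse bone marrow-derived macrophages (BMDMs) to 4 h of IFN-γ and lipopolysaccharide (LPS) is described here across all genes, from 6 RNA-seq libraries out of the 25 of the series. The 6 libraries were chosen by their labels: 3 control libraries of BMDMs cultured for 4 h without stimulus, and 3 libraries of BMDMs given IFN-γ at 100 U/ml together with LPS at 100 ng/ml for 4 h, named IFN-γ-primed LPS-stimulated BMDMs in the study. All 6 came from C57BL/6 mice, carried no genetic change, and had been differentiated from bone marrow for 4 days with macrophage colony-stimulating factor (M-CSF) at 25 ng/ml, so the controls were M-CSF-grown macrophages as well. The labels give IFN-γ and LPS in the same treatment and do not state how long IFN-γ was given before LPS, nor the age or number of the mice. The study calls the triplicates biological, and nothing in the labels ties a library to an animal, so the p-values measure the spread between these 3 samples a group, which may in part be technical. Groups of the same series at 1, 12 and 24 h shared the fit with these 6 libraries, so they bear on which genes were tested and on the estimate of spread; with the 6 libraries alone 8896 genes were tested, 1037 called up and 981 down. The RAW264.7 cell line with LPS alone was fitted apart, for a comparison of responses.

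Macrophages sense LPS, a component of the outer membrane of Gram-negative bacteria, through CD14 and Toll-like receptor 4 (TLR4), which switch on NF-κB, AP-1 and IRF transcription factors. IFN-γ, a cytokine made by T and NK cells, signals through JAK kinases and prepares macrophages to kill intracellular microbes and to present antigen. The combination is the standard stimulus for classical (M1) activation, a state known for secretion of inflammatory cytokines and production of nitric oxide.

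IFN-γ-primed LPS stimulation moved a large part of the transcriptome in both directions within 4 h. Of 9568 genes with enough counts to test, 1086 were called up and 1094 were called down, a call being a change of 1.5 log2 units or more whose false discovery rate (FDR; edgeR's quasi-likelihood test, p-values adjusted by Benjamini-Hochberg) did not exceed 0.01; these are 11.4% and 11.4% of the genes tested. At any size of change, 2486 genes (26.0%) rose and 2446 (25.6%) fell at the same FDR. As fitted and scaled here, the rises were larger than the falls. The median size among called genes was 2.73 on the log2 scale for genes called up and 2.17 for genes called down. Of the genes called, 211 rose by 5 or more log2 units against 41 that fell by as much. These include 48 genes with no count in any control library and 15 with none at 4 h, whose fitted changes depend on the small count that edgeR adds. Genes called up stood at a median of 118 CPM (counts scaled to 1000000 a library, not corrected for transcript length) at 4 h, and genes called down had stood at a median of 19.5 CPM in control cells. Sequencing depth limits how far a fall from such a level can be measured, so rises and falls are not on equal terms. Their sizes also depend on the scaling, since library totals alone lowered the median log2-fold change by 0.53.

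The libraries held few counts on genes, and their make-up shifted with the stimulus. Sense-strand counts came to 2378639 to 2776685 a library, of which the ribosomal precursor RNA Rn45s took 27.4 to 38.1%, and 1502618 to 1796271 counts remained once it was removed. Genes called up held 4.97 to 5.04% of these counts in control libraries and 34.4 to 35.4% at 4 h, and genes called down held 7.36 to 7.51% in control libraries and 1.06 to 1.13% at 4 h. The trimmed mean of M-values (TMM) scaling used here put the median log2-fold change of all genes at −0.07, and scaling by library totals alone lowered that median by 0.53, to −0.61. Under library totals the calls split into 785 up and 1914 down. Levels below are CPM on the TMM scale, in the order of replicates 1, 2 and 3; they are not corrected for transcript length, so a level is compared between samples and not between genes.

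Macrophage markers were present in every library. The 11 macrophage markers summed to 22245 to 23792 CPM in control cells and 21000.4 to 22854 CPM at 4 h, with 3 of the 11 called up (Aif1, Cd14 and Fcgr1) and none down. Within the fold limit, Cd68 (−0.78), Csf1r (−0.56), Lyz2 (−0.51) and Itgam (−0.47) fell. Fcer1g (1.23), Mertk (0.92) and Adgre1 (0.43) rose within it, and Tyrobp did not pass the test. Most of the sum was Lyz2, at a mean of 19113 CPM in control cells and 13400 CPM at 4 h, while Cd14 went from 266 to 3940 CPM. B cell, NK cell, mast cell and erythroid markers summed to at most 1.52 CPM in any of the 6 libraries. T cell markers summed to 0 to 1.48 CPM in control libraries and 9.50 to 17.4 CPM at 4 h through Lck and Cd247, with Cd3d, Cd3e and Cd3g at 0 in both groups. Dendritic cell markers summed to 0.495 to 1.52 CPM in control libraries and 13.2 to 16.6 CPM at 4 h through Clec9a, with Flt3 and Siglech at 0 in both groups. The granulocyte markers summed to 20.8 to 31.7 CPM in control libraries and 35.4 to 46.0 CPM at 4 h, with Mpo, Elane and Retnlg at 0 in both groups; S100a8 and S100a9 rose within the fold limit (log2-fold changes 1.32 and 1.48) and Mmp8 was called down (−2.67). Stromal markers summed to 84.1 to 114 CPM and 88.2 to 141 CPM, with Pdgfrb called up (2.96) and Col1a1 and Col1a2 at −0.03 and −0.11. The part of other cells in the results below was not tested. As these are bulk samples, fewer cells of a type and less RNA per cell cannot be told apart for any gene that fell.

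**Figure D1:**
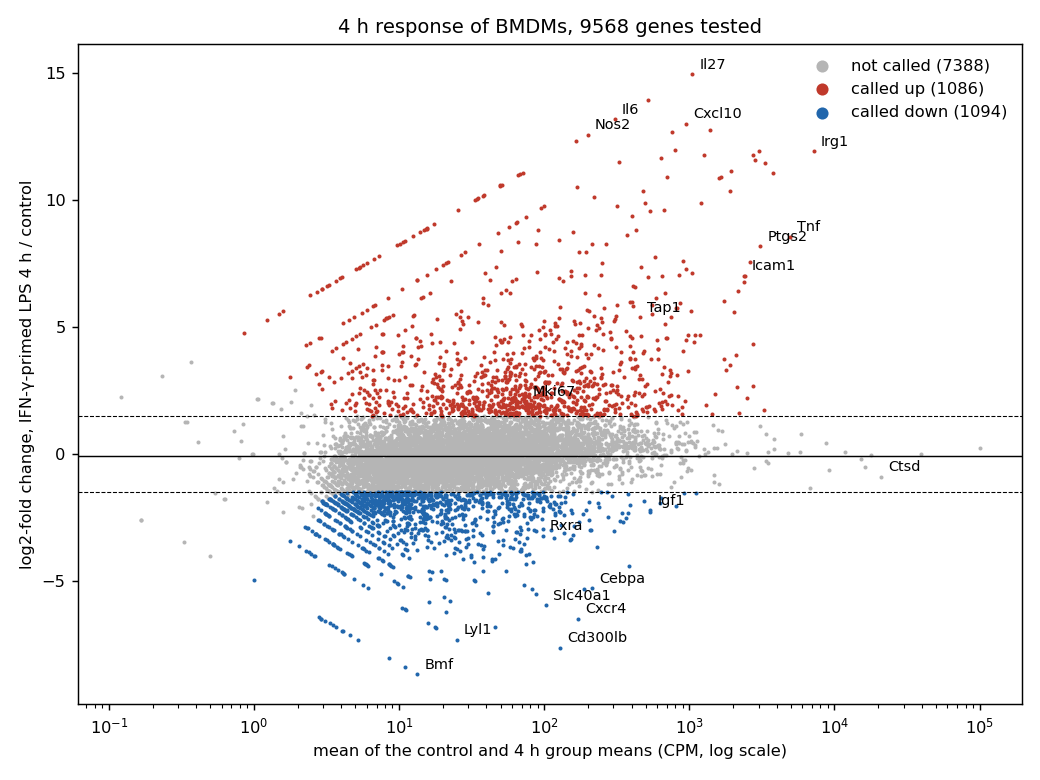
Log2-fold change at 4 h against control (vertical axis) by mean level in CPM (horizontal axis, log scale) for the 9568 genes tested; red, 1086 genes called up; blue, 1094 called down; grey, not called; dashed lines, 1.5 log2 units either way; solid line, the median of −0.07. Irg1 lies at 11.91 and Cd300lb at −7.63; the position of a gene with no count in 1 group, such as Il27 or Bmf, depends on the small count edgeR adds.

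Cytokine genes rose steeply, with few falls. Of 56 cytokine and growth factor genes in the files, 33 had enough counts to test, 24 were called up and 3 down, with a median log2-fold change of 4.02; a gene silent in control cells enters the test only through counts in stimulated libraries, at 4 h or another time, so these counts describe the list and do not test it. Il27 (chr7:126589009-126595035 in GRCm38, the assembly behind mm10), a subunit of the heterodimeric cytokine IL-27, had no count in any control library and 2312, 2032 and 1934 CPM at 4 h. That rise was at least 4190-fold when the controls are set to a floor of 3 counts over the group. Il6, which drives the acute phase response, went from no count to 572, 650.4 and 614 CPM, at least 1226-fold. The groups lay far apart for both genes, and the 3 libraries within each were close together.

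Il12b, which encodes the subunit shared by IL-12 and IL-23, was at 0, 0.507 and 0.495 CPM in control cells and 2609, 2777 and 2943 CPM at 4 h (log2-fold change 12.76, SE 0.47, adjusted p = 1.15e-10). Tnf rose from 26.3, 25.8 and 26.2 to 9965, 10142 and 9221 CPM (log2-fold change 8.54, SE 0.13, adjusted p = 9.77e-44). Il1b, the inflammasome substrate, rose from 2.34 ± 1.56 to 6648 ± 567 CPM and Il1a from 1.49 ± 0.853 to 6080.00 ± 727 CPM (means ± SD, n = 3). All 4 genes were higher in each stimulated library than in each control library. The 3 cytokine and growth factor genes called down were led by Igf1, a trophic factor of resting macrophages, at 865, 882 and 914 CPM in control cells and 152, 227 and 195 CPM at 4 h (log2-fold change −2.21, SE 0.11, adjusted p = 3.75e-22). Tnfsf12, which encodes TWEAK, fell from 35.3 ± 1.65 to 11.9 ± 3.13 CPM (log2-fold change −1.58, SE 0.21, adjusted p = 1.23e-08), and without IFN-LPS 4 h replicate 3 its log2-fold change was −1.38, short of the fold limit. Il16, a chemoattractant for CD4+ cells, had 16.4, 18.7 and 16.3 CPM in control cells and no count at 4 h, at least 23.3-fold lower.

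Chemokine genes rose further still by their median and had no member called down. Of 19 tested from 35 in the files, 17 were called up, with a median log2-fold change of 7.02, or 6.84 with the 2 genes absent from control libraries set at their floor. Here too, genes silent in control cells enter the test only through stimulated libraries. With at least 10 counts required in each sample, 4 of 5 chemokine genes tested were called up. Cxcl10 and Cxcl9, ligands of CXCR3 that recruit T cells, were at 0.497, 0 and 0 and 0, 0.507 and 0.495 CPM in control cells. At 4 h Cxcl10 stood at 1925, 1831 and 1934 CPM (log2-fold change 12.99, SE 0.23, adjusted p = 2.72e-41) and Cxcl9 at 1481, 1849.7 and 1439.6 CPM (log2-fold change 11.96, SE 0.25, adjusted p = 1.61e-33). Ccl5 (RANTES), which attracts T cells and monocytes, rose from 0.994, 0.507 and 0.495 to 3024, 2315 and 2211 CPM (log2-fold change 11.75, SE 0.22, adjusted p = 7.24e-38). No control library reached 1 CPM of any of the 3 genes. The receptors moved differently: of 8 chemokine receptor genes tested from 23 in the files, 2 were called up (Ccr7 and Ccrl2) and 2 down (Cx3cr1 and Cxcr4). Cxcr4, the receptor that retains leukocytes in bone marrow, fell from 323, 326 and 363 to 4.75, 4.17 and 2.19 CPM (log2-fold change −6.49, SE 0.21, adjusted p = 6.46e-31), with the groups far apart. Cx3cr1, the fractalkine receptor, fell from 39.8 ± 3.65 to 3.92 ± 1.05 CPM (log2-fold change −3.32, SE 0.29, adjusted p = 2.62e-14), and Ccrl2, an atypical receptor, rose from 29.3 ± 6.50 to 1578 ± 124 CPM (log2-fold change 5.75, SE 0.13, adjusted p = 1.22e-36). Ccr1 did not pass the test (log2-fold change −0.02, SE 0.42, adjusted p = 0.964), and Ccr2 had too few counts to test.

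Almost all interferon-inducible genes that could be tested rose. All 22 interferon-inducible GTPase genes tested, of 26 in the files, were called up, with a median log2-fold change of 7.62 (6.74 with the 4 genes absent from control libraries at their floor). Of 64 antiviral interferon-stimulated genes tested, of 68, 60 were called up with a median of 4.67. As for the cytokines, genes silent in control cells enter the test only through stimulated libraries, so these counts describe the lists and do not test them. With at least 10 counts required in each sample, 6 GTPase genes were tested and 6 called up, and 31 of 33 antiviral genes were called up. The GTPases include the guanylate-binding proteins and immunity-related GTPases, which attack vacuoles that hold microbes. Gbp5 rose from 1.99, 1.01 and 1.48 to 5092, 5983 and 5318 CPM (log2-fold change 11.77, SE 0.18, adjusted p = 1.22e-43), Gbp2 from 2.49 ± 1.47 to 2406 ± 53.3 CPM (log2-fold change 9.87, SE 0.17, adjusted p = 6.33e-42) and Irgm1 from 35.1 ± 4.27 to 1456 ± 97.5 CPM (log2-fold change 5.37, SE 0.12, adjusted p = 1.16e-37). Tgtp2 had no count in control cells and 351, 330.1 and 316 CPM at 4 h, at least 665-fold higher. Several of these GTPases have near-identical neighbours (Tgtp1 beside Tgtp2, and copies among the Gbp genes), and reads that map to more than 1 place were not counted, so the split between such copies is uncertain.

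Among antiviral genes, Oasl1, an oligoadenylate synthetase-like protein, had no control count and 1004, 1098 and 1009 CPM at 4 h, at least 2077-fold higher. Ifit1, which binds viral RNA, rose from 0.497, 3.04 and 1.48 to 3352, 4469 and 3854 CPM (log2-fold change 11.13, SE 0.20, adjusted p = 3.56e-36), and Rsad2 (viperin) from 0.994, 3.55 and 0.990 to 5118, 6013 and 5918 CPM (log2-fold change 11.55, SE 0.21, adjusted p = 2.5e-33). Mx1 rose from 0.169 ± 0.293 to 1509.5 ± 126 CPM (log2-fold change 12.66, SE 0.25, adjusted p = 4.36e-37), and Isg15, a ubiquitin-like modifier, from 1.66 ± 0.560 to 1338 ± 87.5 CPM (log2-fold change 9.59, SE 0.20, adjusted p = 1.3e-37). Cmpk2, a mitochondrial nucleotide kinase that lies next to Rsad2, rose from 3.49 ± 0.985 to 7553 ± 438 CPM (log2-fold change 11.05, SE 0.27, adjusted p = 1.85e-17). Each stimulated library exceeded each control for all of these genes.

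The promoters of 5 induced genes are shown because they hold the 3 kinds of element through which IFN-γ and LPS are known to act: the interferon-stimulated response element core (ISRE, searched on both strands as GAAA, any 2 bases and GAAA again), the gamma-activated sequence of IFN-γ signalling (GAS, searched as TTCNNNGAA, which reads the same on both strands) and the κB motif of NF-κB (searched on both strands). Each sequence is the 250 bases before the RefSeq start site in GRCm38.p6, read 5′ to 3′ on the strand of the gene, with the matches in capitals. 
Gbp5: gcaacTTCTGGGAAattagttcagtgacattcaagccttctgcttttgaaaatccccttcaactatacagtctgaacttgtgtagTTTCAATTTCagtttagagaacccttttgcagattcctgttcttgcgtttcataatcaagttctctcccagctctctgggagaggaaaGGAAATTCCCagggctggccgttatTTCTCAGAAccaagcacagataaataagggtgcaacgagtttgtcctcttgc
Ifit1: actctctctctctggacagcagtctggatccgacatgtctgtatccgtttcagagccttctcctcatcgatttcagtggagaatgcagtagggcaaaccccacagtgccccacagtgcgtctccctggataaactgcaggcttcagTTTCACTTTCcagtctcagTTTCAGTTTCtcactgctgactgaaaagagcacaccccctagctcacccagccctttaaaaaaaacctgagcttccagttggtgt
Irf1: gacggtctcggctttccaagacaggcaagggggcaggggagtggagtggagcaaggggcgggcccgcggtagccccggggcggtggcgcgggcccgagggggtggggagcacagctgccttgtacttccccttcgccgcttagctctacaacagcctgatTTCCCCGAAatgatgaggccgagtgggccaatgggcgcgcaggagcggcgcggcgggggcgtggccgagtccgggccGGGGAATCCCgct
Cxcl10: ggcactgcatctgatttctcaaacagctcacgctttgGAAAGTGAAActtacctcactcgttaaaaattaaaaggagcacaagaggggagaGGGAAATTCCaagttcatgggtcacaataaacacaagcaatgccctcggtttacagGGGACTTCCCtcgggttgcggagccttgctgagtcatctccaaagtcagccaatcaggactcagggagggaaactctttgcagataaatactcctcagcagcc
Il6: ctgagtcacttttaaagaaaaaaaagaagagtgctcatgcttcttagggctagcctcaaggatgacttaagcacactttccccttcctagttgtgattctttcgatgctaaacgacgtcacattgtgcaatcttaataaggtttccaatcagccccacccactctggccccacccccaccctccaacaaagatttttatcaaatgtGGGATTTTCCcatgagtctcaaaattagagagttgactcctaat
The Gbp5 stretch (chr3:142496684-142496933, plus strand) held an ISRE core 165 bases before the start, GAS matches at 245 and 52 bases and a κB match at 77 bases, each position being that of the first base of the match. Ifit1 (chr19:34640639-34640888, plus strand) held ISRE cores at 104 and 85 bases, and Irf1 (chr11:53769764-53770013, plus strand) a GAS at 90 bases and a κB match at 13 bases. Cxcl10 (chr5:92348890-92349139, minus strand) held an ISRE core at 213 bases and κB matches at 159 and 103 bases, and Il6 (chr5:30012864-30013113, plus strand) a κB match at 44 bases. Over all 27025 genes with a promoter in the RefSeq table, taken as 250 bases before to 50 after the start, 3.49% held the ISRE core, 8.47% the GAS and 4.35% the κB motif. A comparison of these shares between the called sets was void, since the table held a promoter for 78.9% of the genes called up and 79.4% of those called down, under the 80% needed. The 5 promoters were chosen for their matches and do not stand for the induced genes as a set. Matches also lay in promoters of genes not called up, such as Lamp1 (ISRE core), Rplp0 (GAS) and Bmf (κB). A match is a description of the letters and not a site of binding.

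Transcripts of most antigen presentation genes tested were higher in both classes. Of 22 genes of MHC class I presentation and the immunoproteasome tested, of 25, 18 were called up and none down (median log2-fold change 3.01), and of 13 class II genes tested, of 17, 8 were called up and none down (median 3.94), although 2 (March1 and Rfxap) fell within the fold limit, 3 were called down under library totals and 1 of 14 tested was called down without IFN-LPS 4 h replicate 1. H2-K1, a classical class I heavy chain, rose from 598 ± 7.37 to 3687 ± 258 CPM (log2-fold change 2.62, SE 0.09, adjusted p = 1.92e-30). Tap1, which carries peptides into the endoplasmic reticulum, rose from 21.4, 22.3 and 19.8 to 933, 859.5 and 873 CPM (log2-fold change 5.39, SE 0.12, adjusted p = 1.66e-36), and the immunoproteasome subunit Psmb9 from 17.8 ± 1.08 to 169 ± 12.5 CPM (log2-fold change 3.24, SE 0.14, adjusted p = 2.53e-25). Nlrc5, the transactivator of class I genes, rose from 35.5 ± 0.436 to 890.1 ± 91.3 CPM (log2-fold change 4.65, SE 0.12, adjusted p = 4.16e-35). Each of these genes already had counts in every control library. Cd74, the invariant chain, rose from 43.2, 44.1 and 41.6 to 4929, 4724 and 4453 CPM (log2-fold change 6.77, SE 0.11, adjusted p = 2.87e-42), and H2-Ab1 from 10.9, 11.1 and 15.8 to 1789, 1714 and 1513 CPM (log2-fold change 7.04, SE 0.13, adjusted p = 1.05e-39). Ciita, the master regulator of class II, rose from 1.16 ± 0.752 to 74.7 ± 9.67 CPM (log2-fold change 5.92, SE 0.44, adjusted p = 1.16e-10). H2 genes are highly similar to each other, and the division of reads among them is uncertain.

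Most costimulatory and checkpoint molecules rose and a few fell. Of 22 tested, of 24, 15 were called up and 5 down (VISTA, Cd200r1, Cd84, Cd276 and Havcr2), or 3 down without IFN-LPS 4 h replicate 3. Cd40, the receptor for T cell help, rose from 0.497, 2.53 and 1.98 to 3409.8, 3305 and 3181 CPM (log2-fold change 10.90, SE 0.19, adjusted p = 9.58e-41), Cd86 from 7.48 ± 1.94 to 195 ± 29.8 CPM (log2-fold change 4.69, SE 0.18, adjusted p = 6.18e-28), and Tnfsf9 (4-1BB ligand) from 0.496 ± 0.497 to 174 ± 35.1 CPM (log2-fold change 8.26, SE 0.33, adjusted p = 6.91e-21). Cd274 (PD-L1), which restrains T cells, rose as well, from 74.5, 79.5 and 67.8 to 2003, 1884 and 1786 CPM (log2-fold change 4.68, SE 0.13, adjusted p = 1.35e-27). The checkpoint gene for VISTA, listed under its older symbol 4632428N05Rik, fell instead, from 658, 604 and 631 to 131, 128 and 121 CPM (log2-fold change −2.32, SE 0.10, adjusted p = 7.08e-26). Cd200r1, an inhibitory receptor of myeloid cells, fell from 57.2 ± 8.19 to 7.07 ± 1.72 CPM (log2-fold change −2.99, SE 0.24, adjusted p = 1.52e-15), and Cd84, a SLAM family receptor, from 756 ± 16.5 to 211 ± 19.6 CPM (log2-fold change −1.84, SE 0.09, adjusted p = 1.68e-22). The stimulated and control libraries were apart for every one of these 7 genes.

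Irg1, Nos2 and Ptgs2, enzymes that make small-molecule mediators of macrophages, rose steeply. Irg1 (now Acod1, chr14:103047012-103056573), which makes itaconate from cis-aconitate, had the largest rise in CPM among the genes called up, from 1.99, 5.07 and 3.96 to 15048, 15080.5 and 12982 CPM (log2-fold change 11.91, SE 0.17, adjusted p = 1.02e-43). Nos2, the inducible nitric oxide synthase, had no control count and 447, 329 and 418 CPM at 4 h, at least 797-fold higher. Ptgs2 (cyclooxygenase 2), the inducible step of prostaglandin synthesis, rose from 17.9, 16.7 and 29.2 to 5345, 6815 and 6292 CPM (log2-fold change 8.17, SE 0.22, adjusted p = 8.46e-17). In all 3 genes each stimulated library lay far above the controls. Hpgds, the haematopoietic prostaglandin D synthase, fell from 125 ± 14.7 to 32.2 ± 4.23 CPM (log2-fold change −1.95, SE 0.16, adjusted p = 2.47e-14). In the whole list of 23 enzymes tested, of 30, 9 were called up and 2 down (Hpgds and Hpgd, which breaks down prostaglandins).

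In core metabolism most genes stayed within the fold limit. Of 33 glycolysis and pentose phosphate genes tested, of 34, 7 were called up and 2 down. The glucose carrier Slc2a6 rose from 10.9, 7.60 and 11.9 to 1378, 1259 and 1248 CPM (log2-fold change 6.99, SE 0.14, adjusted p = 2.54e-39), the phosphofructokinase Pfkp from 48.5 ± 5.10 to 251 ± 15.9 CPM (log2-fold change 2.37, SE 0.13, adjusted p = 2.61e-21) and Pfkfb3, which makes the activator of phosphofructokinase, from 49.7 ± 4.61 to 298 ± 31.6 CPM (log2-fold change 2.58, SE 0.18, adjusted p = 7.09e-11). Slc2a1 (GLUT1) and hexokinase 2 (Hk2) rose by 1.84 (SE 0.17) and 1.66 (SE 0.17) log2 units; under library totals these were 1.31 and 1.13, and without control replicate 2 Hk2 was at 1.47, short of the fold limit in each case. The related enzymes Pfkfb2 and Pfkfb4 were the 2 called down, at −2.20 (SE 0.24) and −1.67 (SE 0.27); without control replicate 3 or without IFN-LPS 4 h replicate 2 Pfkfb4 stood at −1.46 and −1.43, and only 1 of the 2 stayed called.

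The tricarboxylic acid cycle list also holds the cytosolic enzyme gene Idh1 and the pyruvate dehydrogenase regulators Pdk4 and Pdp1. These were the 3 genes called down of 31 tested, of 32, and none was called up. No enzyme of the cycle itself was therefore called in either direction. The 9.68% called down compare with 11.4% over all genes. Idh1, the cytosolic isocitrate dehydrogenase, fell from 59.6, 52.2 and 60.9 to 9.50, 6.95 and 12.4 CPM (log2-fold change −2.58, SE 0.22, adjusted p = 3.78e-14), and Pdp1, a phosphatase that activates pyruvate dehydrogenase, from 66.2 ± 4.74 to 13.9 ± 5.54 CPM (log2-fold change −2.24, SE 0.20, adjusted p = 1.53e-13). Sdha, a subunit of succinate dehydrogenase, did not pass the test (log2-fold change −0.29, SE 0.11, adjusted p = 0.0224). None of 69 respiratory chain genes or 77 ribosomal protein genes tested, of 72 and 84, reached the fold limit in either direction by edgeR's quasi-likelihood test. At any size, 25 respiratory chain genes and 49 ribosomal protein genes rose and none fell, but these rises turned with the scaling: the list medians were 0.34 and 0.35 under TMM and −0.20 and −0.18 under library totals, and relative to the median of all genes they were 0.41 and 0.42 higher. Rplp0, at 0.51 (SE 0.08) under TMM, stood at −0.02 under library totals, and Rps6 went from 0.42 (SE 0.10) to −0.11.

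The sensors of microbial products were themselves changed. Of 39 genes of TLR and LPS sensing tested, of 44, 16 were called up and 1 down (3 down under library totals). Cd14, which hands LPS to its receptor complex, rose from 249, 257 and 293 to 4205, 4005 and 3609 CPM (log2-fold change 3.89, SE 0.10, adjusted p = 1.82e-34), and Tlr2, the receptor for bacterial lipopeptides, from 72.1, 78.02 and 96.5 to 1960.1, 2261 and 2064 CPM (log2-fold change 4.67, SE 0.12, adjusted p = 3.29e-30). The cytosolic peptidoglycan sensor Nod1 and its kinase Ripk2 rose by 4.94 (SE 0.15) and 4.69 (SE 0.14) log2 units. Tlr4 went the other way and fell from 156, 169.7 and 133 to 54.6, 57.7 and 72.3 CPM (log2-fold change −1.31, SE 0.16, adjusted p = 5.05e-09), within the fold limit, and under library totals it was past that limit at −1.84. Tlr13, which recognizes bacterial ribosomal RNA, was the gene called down, from 965, 1051 and 984 to 242, 288 and 258 CPM (log2-fold change −1.93, SE 0.11, adjusted p = 2.63e-20).

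Many inhibitors of the same pathways rose as well: 21 of 39 genes tested, of 44, were called up and 5 down (Dusp6, Inpp5d, Socs6, Zfp36l1 and Zfp36l2). Socs3, an inhibitor of JAK-STAT signalling, rose from 0, 1.52 and 0.495 to 695, 617 and 596 CPM (log2-fold change 9.76, SE 0.22, adjusted p = 4.36e-37), Socs1 from 1.34 ± 1.27 to 114 ± 9.59 CPM (log2-fold change 6.35, SE 0.29, adjusted p = 8.3e-24), and Cish, of the same family, had no control count and 30.1, 29.9 and 31.4 CPM at 4 h, at least 61.0-fold higher. Nfkbia, the inhibitor that holds NF-κB in the cytoplasm, rose from 38.2 ± 7.83 to 1324 ± 62.8 CPM (log2-fold change 5.12, SE 0.11, adjusted p = 4.24e-37), and Usp18, which removes ISG15 and restrains the type I interferon receptor, from 1.17 ± 0.781 to 801 ± 37.9 CPM (log2-fold change 9.35, SE 0.20, adjusted p = 2.87e-38). Inpp5d (SHIP1), a lipid phosphatase, fell from 373, 373 and 367 to 55.4, 50.03 and 35.1 CPM (log2-fold change −2.99, SE 0.13, adjusted p = 1.47e-24). The mRNA decay factors Zfp36l1 and Zfp36l2 fell from 53.9 ± 4.49 to 5.48 ± 2.19 CPM and from 129.97 ± 5.11 to 9.40 ± 7.20 CPM (log2-fold change −3.30, SE 0.28, adjusted p = 5.13e-14 and log2-fold change −3.83, SE 0.23, adjusted p = 5.21e-17). Zfp36 (tristetraprolin) of the same family did not pass the test at 4 h (log2-fold change 0.49, SE 0.19, adjusted p = 0.0259).

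Most transcription factors of the interferon and inflammatory pathways rose. Among IRF, STAT, NF-κB and AP-1 family members, 21 of 31 tested, of 37, were called up and 2 down (Fos and Jun). Irf1 rose from 45.2, 42.1 and 35.6 to 2036, 2124 and 1877 CPM (log2-fold change 5.62, SE 0.11, adjusted p = 4.37e-39) and Irf7 from 4.97, 5.07 and 6.93 to 1062, 892 and 832 CPM (log2-fold change 7.34, SE 0.15, adjusted p = 1.56e-38). Rel, which encodes the NF-κB subunit c-Rel, rose from 13.2 ± 1.12 to 100.3 ± 9.11 CPM (log2-fold change 2.93, SE 0.18, adjusted p = 3.21e-19), and the AP-1 family member Batf2 from 1.16 ± 0.566 to 177 ± 8.37 CPM (log2-fold change 7.17, SE 0.25, adjusted p = 5.22e-29). Jun, a core AP-1 subunit, fell from 97.4, 112 and 92.5 to 29.3, 19.5 and 22.7 CPM (log2-fold change −2.09, SE 0.17, adjusted p = 3.92e-15).

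Among the factors that establish and maintain macrophages, more fell than rose. Of 48 tested, of 54, 19 were called down and 10 up. These are 39.6% and 20.8%, against 11.4% each way over all genes. The fold limit as the null hypothesis left 12 called down. When at least 10 counts were required in each sample, 8 of 30 tested were called down. Cebpa, a factor required for the myeloid lineage, fell from 389.6, 399 and 455 to 12.7, 7.64 and 11.7 CPM (log2-fold change −5.28, SE 0.16, adjusted p = 3.01e-31). Pparg, a nuclear receptor of lipid metabolism, fell from 31.3, 37.5 and 28.7 to 2.37, 2.78 and 2.19 CPM (log2-fold change −3.69, SE 0.32, adjusted p = 4.38e-14). Lyl1, a basic helix-loop-helix factor of blood cells that was in none of the lists, fell from 51.7, 47.1 and 50.5 to 0, 0.695 and 0 CPM (log2-fold change −7.32, SE 0.44, adjusted p = 1.24e-19). All 3 had left the range of the controls at 4 h. Spi1 (PU.1), the lineage factor of macrophages, did not share the fall and rose from 237 ± 9.55 to 525 ± 39.8 CPM (log2-fold change 1.15, SE 0.09, adjusted p = 6.42e-15). Nr4a3, a nuclear orphan receptor, and Gfi1, a repressor, had no control count and reached 51.4, 40.3 and 62.1 CPM and 28.5, 30.6 and 29.96 CPM, at least 103-fold and 59.4-fold higher, and Tfec rose from 7.32 ± 1.41 to 115 ± 9.66 CPM (log2-fold change 3.96, SE 0.21, adjusted p = 1.75e-20).

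**Figure D2:**
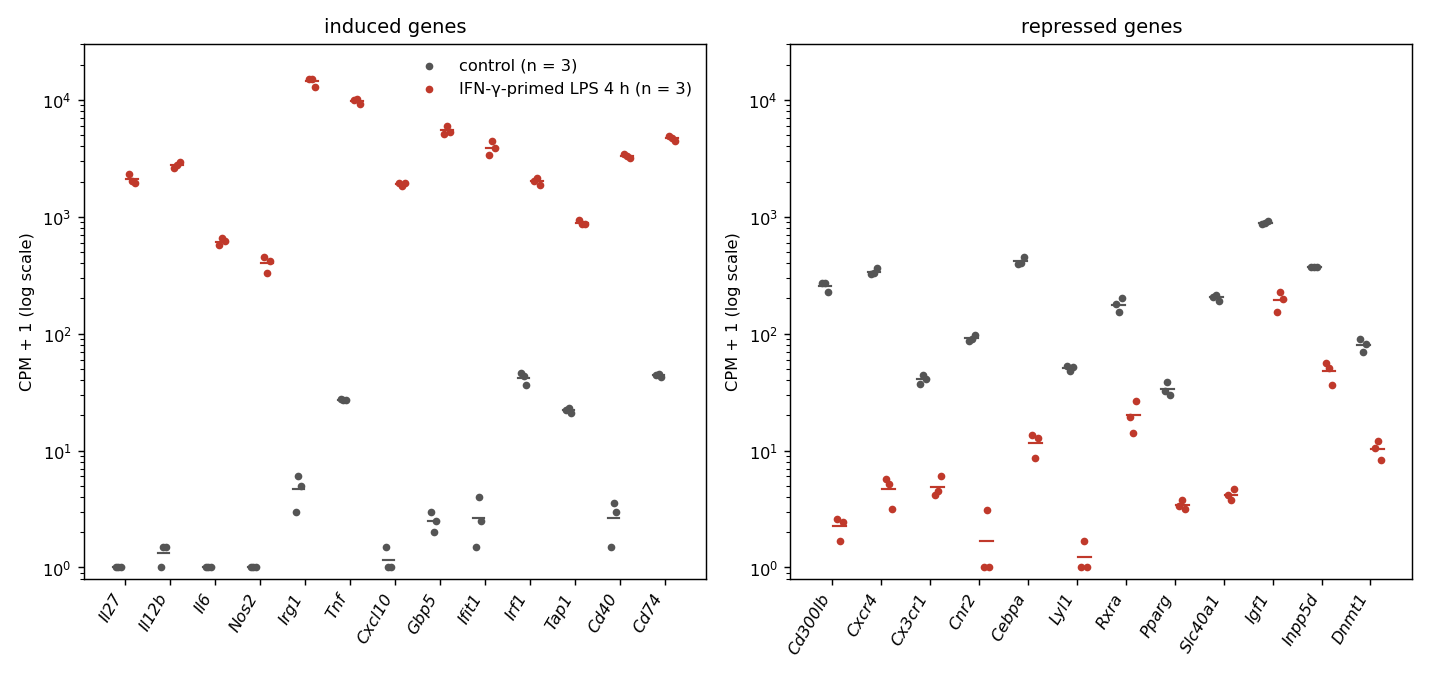
CPM + 1 (vertical axis, log scale) of 13 induced genes (left) and 12 repressed genes (right) in each of the 3 control libraries (grey points) and 3 libraries at 4 h (red points); lines are group means. No gene shown has overlapping groups, and Il27, Il6 and Nos2 sit at the bottom of the axis, at no count, in all 3 controls.

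Surface receptors moved in both directions. Scavenger, phagocytic and efferocytosis receptors had 15 members called up and 14 down of 63 tested, of 71, and G protein-coupled receptors for nucleotides, lipids and chemoattractants had 13 up and 12 down of 36 tested, of 55. Clec4e (Mincle), which binds mycobacterial glycolipid, rose from 8.95, 7.09 and 11.9 to 1562, 1987 and 1849.5 CPM (log2-fold change 7.58, SE 0.15, adjusted p = 4.14e-39), and the complement genes C3 and Cfb, placed in the same list, from 8.34 ± 2.01 to 809.9 ± 91.7 CPM and from 0.165 ± 0.286 to 149 ± 17.4 CPM. Cd300lb, an activating receptor of the CD300 family on chr11:114922779-114934371, had the steepest fall of any gene whose 4 h libraries still held counts in all 3, from 272, 269 and 227 to 1.58, 0.695 and 1.46 CPM (log2-fold change −7.63, SE 0.25, adjusted p = 4.45e-30). Its relatives Cd300a and Cd300ld fell by smaller amounts, at −2.36 (SE 0.11) and −2.37 (SE 0.22) log2 units. Cd36 fell from 1064 ± 52.1 to 494 ± 85.7 CPM, within the fold limit under TMM (log2-fold change −1.10, SE 0.13, adjusted p = 2.62e-08) and past it under library totals at −1.64. Msr1 and Mertk, receptors for modified lipoprotein and for apoptotic cells, rose by 1.37 (SE 0.14) and 0.92 (SE 0.12) log2 units, also within that limit.

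Single G protein-coupled receptors moved either way. Adora2a, an adenosine receptor, rose from 0, 0 and 0.495 to 203, 188 and 183 CPM (log2-fold change 9.68, SE 0.32, adjusted p = 4.55e-30), Hcar2, a receptor for nicotinic acid, from 0.165 ± 0.286 to 199 ± 12.2 CPM (log2-fold change 9.75, SE 0.34, adjusted p = 2.91e-27) and Fpr2, a formyl peptide receptor, from 0.166 ± 0.287 to 95.6 ± 9.16 CPM (log2-fold change 8.69, SE 0.44, adjusted p = 2.62e-17). Lpar5 and Lpar6, receptors for lysophosphatidic acid, fell from 21.6 ± 0.708 to 0.244 ± 0.422 CPM and from 72.5 ± 15.2 to 2.96 ± 0.195 CPM (log2-fold change −6.12, SE 0.61, adjusted p = 2.92e-12 and log2-fold change −4.59, SE 0.28, adjusted p = 1.6e-19). Cnr2, the cannabinoid receptor of immune cells, fell from 85.5, 89.7 and 96.5 to 0, 2.08 and 0 CPM (log2-fold change −6.82, SE 0.36, adjusted p = 7.66e-22), and S1pr1, which reads sphingosine 1-phosphate, from 86.8 ± 9.92 to 14.7 ± 2.01 CPM (log2-fold change −2.55, SE 0.18, adjusted p = 1.28e-17). C3ar1, the receptor for complement C3a, fell from 1303 ± 20.04 to 316 ± 27.3 CPM (log2-fold change −2.04, SE 0.24, adjusted p = 1.77e-05), one of the 6 largest falls in CPM among the genes called down. P2ry12 had too few counts to test.

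Adhesion molecules were called up more often than down. Of 49 growth factor receptor and TGF-β signalling genes tested, of 55, 8 were called up and 4 down (Il6ra, Ski, Smad3 and Smad6). These 16.3% and 8.16% were near the 11.4% of all genes called each way. Of 31 integrin and adhesion genes tested, of 41, 10 were called up (32.3%, against 11.4% of all genes) and 2 down (Itga6 and Itgb3). Met, the hepatocyte growth factor receptor, rose from 9.47 ± 2.89 to 342 ± 34.6 CPM (log2-fold change 5.17, SE 0.17, adjusted p = 3.19e-28) and Il15ra from 2.34 ± 0.610 to 268 ± 37.7 CPM (log2-fold change 6.81, SE 0.21, adjusted p = 1.61e-31). Csf1r, the M-CSF receptor on which these cells were grown, fell from 682, 561 and 610.1 to 450.3, 368 and 439.9 CPM (log2-fold change −0.56, SE 0.11, adjusted p = 4.93e-05), within the fold limit, and Tgfbr1 had a log2-fold change of −0.81 (SE 0.10). Icam1, the ligand of leukocyte integrins, rose from 33.8, 36.5 and 39.6 to 4992, 4639.6 and 4554 CPM (log2-fold change 7.01, SE 0.12, adjusted p = 6.33e-42), with its partner subunit Itgal at 2.48 (SE 0.12) and Itga4 at 2.57 (SE 0.10). Itga6, a laminin receptor subunit, fell from 319 ± 36.7 to 84.8 ± 2.52 CPM (log2-fold change −1.91, SE 0.12, adjusted p = 2.08e-18), and Itgb8 appeared from no control count, at least 55.7-fold higher.

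Several genes of lipid handling fell. In the list of LXR targets and lipid efflux, 8 of 29 genes tested, of 32, were called down (14 under library totals) and 1 up. Under TMM these are 27.6% and 3.45%, against 11.4% each way over all genes. Abcg1, an exporter of cholesterol, fell from 115, 81.1 and 95.99 to 14.2, 6.95 and 15.3 CPM (log2-fold change −3.01, SE 0.20, adjusted p = 6.87e-18), whereas Abca1 did not pass the test (log2-fold change −0.31, SE 0.11, adjusted p = 0.0113). Rxra, the partner receptor of LXR and PPARγ, fell from 177, 153 and 199 to 18.2, 13.2 and 25.6 CPM (log2-fold change −3.22, SE 0.17, adjusted p = 4.18e-21), and Nr1h3 (LXRα) did not pass the test (log2-fold change −0.39, SE 0.14, adjusted p = 0.012). The gene called up was Ch25h, which makes 25-hydroxycholesterol, from 0.665 ± 0.285 to 83.4 ± 15.6 CPM (log2-fold change 6.83, SE 0.51, adjusted p = 1.11e-09). Lpl (lipoprotein lipase), Lrp1 (a lipoprotein receptor) and Nceh1 (a cholesterol ester hydrolase) were among the 6 largest falls in CPM of the genes called down, at −1.53 (SE 0.10), −1.55 (SE 0.28) and −2.30 (SE 0.10) log2 units. Lpl and Lrp1 lay near the fold limit: Lpl stood at −1.46 without control replicate 1, −1.47 without control replicate 2 and −1.48 without IFN-LPS 4 h replicate 1, and Lrp1 at −1.40 without control replicate 1 and −1.37 without IFN-LPS 4 h replicate 2.

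Cholesterol and fatty acid synthesis had 5 of 39 genes tested, of 41, called down (Acsl3, Dhcr7, Fads1, Lss and Scd2) and 1 up. These 12.8% called down were near the 11.4% of all genes tested. There were 8 down under library totals, 3 without IFN-LPS 4 h replicate 3 and 0 with the fold limit as the null hypothesis. Acsl1, an acyl-CoA synthetase, rose from 50.6 ± 3.23 to 629 ± 56.3 CPM (log2-fold change 3.63, SE 0.11, adjusted p = 3.15e-32) while Acsl3 had a log2-fold change of −2.24 (SE 0.32). Lysosome and v-ATPase genes had a median log2-fold change of 0.04, or −0.49 under library totals, with 5 of 65 tested, of 66, called up and 3 down (Atp6v0d2, Sgsh and Tfeb). Under library totals these counts were 2 and 8, and without control replicate 1 there were 3 up. Under TMM, 7.69% called up and 4.62% called down lay below the 11.4% of all genes called each way. Tfeb, the factor that coordinates lysosome genes, fell from 44.2, 41.5 and 49.5 to 2.37, 3.47 and 4.38 CPM (log2-fold change −3.69, SE 0.29, adjusted p = 9e-16), and Atp6v0d2, a proton pump subunit, from 599.8 ± 42.7 to 94.7 ± 9.73 CPM (log2-fold change −2.66, SE 0.12, adjusted p = 5.1e-25), while the protease gene Ctsc rose from 102 ± 12.3 to 1712 ± 101 CPM (log2-fold change 4.07, SE 0.10, adjusted p = 1.09e-34). Ctsd, which encodes cathepsin D, fell from 27045 ± 689 to 14559.5 ± 1346 CPM (log2-fold change −0.89, SE 0.08, adjusted p = 1.23e-13), and Lamp1 did not pass the test (log2-fold change 0.04, SE 0.08, adjusted p = 0.705).

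Slc40a1, Tfrc and Hmox1 fell, while more of the iron handling and NRF2 list was called up than down under TMM scaling. Of 42 genes tested, of 46, 12 were called up and 6 down, or 5 and 10 under library totals. Slc40a1 (ferroportin), the iron exporter, fell from 204, 214 and 190.5 to 3.17, 2.78 and 3.65 CPM (log2-fold change −5.96, SE 0.20, adjusted p = 1.82e-29). Tfrc, the transferrin receptor for iron uptake, fell from 157, 166 and 173 to 21.4, 24.3 and 37.3 CPM (log2-fold change −2.57, SE 0.15, adjusted p = 2.91e-20). Hmox1, which releases iron from haem, fell from 177 ± 16.9 to 41.1 ± 1.27 CPM (log2-fold change −2.10, SE 0.14, adjusted p = 2.35e-18). All 3 genes were lower in each 4 h library than in each control. Slc7a11, the cystine carrier, rose from 30.1 ± 2.64 to 1627 ± 210.4 CPM (log2-fold change 5.75, SE 0.14, adjusted p = 7.82e-34), and Sod2, the mitochondrial superoxide dismutase, from 65.4 ± 5.01 to 1153 ± 43.4 CPM (log2-fold change 4.14, SE 0.10, adjusted p = 7.13e-35).

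More cell cycle genes fell than rose, with exceptions. Of 47 DNA replication genes tested, of 62, 16 were called down and 1 up (Ccne1). Of 43 mitosis genes tested, of 73, 19 were called down (30 under library totals) and 2 up (Kif4 and Mki67, with Mki67 alone left under library totals and without any 1 of 4 libraries). Of 30 genes of G1 cyclins and CDK inhibitors tested, of 33, 10 were called down and 7 up. The shares called down in these lists were 34.0%, 44.2% and 33.3%, and those called up 2.13%, 4.65% and 23.3%. Over all genes tested 11.4% were called each way. With the fold limit as the null hypothesis, 2 DNA replication genes were called down, and 2 mitosis genes down and 1 up. With at least 10 counts required in each sample, 2 of 15 DNA replication genes tested were called down and 0 up. Of 7 mitosis genes tested in that way, 1 was called down and 1 up. The median log2-fold changes of the first 2 lists were −1.10 and −1.41, against −0.07 for all genes. Dnmt1, the maintenance DNA methyltransferase, fell from 88.95, 68.9 and 80.7 to 9.50, 11.1 and 7.31 CPM (log2-fold change −3.08, SE 0.21, adjusted p = 9.28e-18). Ccna2 (cyclin A2) fell from 24.7 ± 3.65 to 4.70 ± 0.737 CPM and the mitotic kinesin Kif11 from 24.3 ± 1.27 to 3.73 ± 0.986 CPM (log2-fold change −2.38, SE 0.32, adjusted p = 7.5e-09 and log2-fold change −2.70, SE 0.33, adjusted p = 1.31e-09). Ccnb1 did not pass the test (log2-fold change −0.94, SE 0.41, adjusted p = 0.0437), and without IFN-LPS 4 h replicate 1 it was called down at −1.70. Mki67, the gene of the Ki-67 antigen and a textbook proliferation marker, went against its list and rose from 29.3, 29.4 and 26.7 to 114, 119 and 128 CPM (log2-fold change 2.08, SE 0.19, adjusted p = 2.49e-10). Cdkn1a (p21), which stops the cycle, rose from 23.4, 24.3 and 23.8 to 1115, 1037 and 1072 CPM (log2-fold change 5.49, SE 0.13, adjusted p = 8.9e-37), and Ccnd2 from 4.16 ± 0.529 to 95.6 ± 15.5 CPM (log2-fold change 4.50, SE 0.33, adjusted p = 4.01e-11) while Ccnd1 fell from 29.7 ± 5.56 to 9.39 ± 1.51 CPM (log2-fold change −1.66, SE 0.26, adjusted p = 2.34e-07). The replication clamp Pcna rose by 0.40 (SE 0.10) under TMM and stood at −0.14 under library totals.

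DNA repair and death genes were mixed. Of 57 DNA damage response genes tested, of 78, 18 were called down and 5 up (Atm, Fancc, Gadd45b, Mdm2 and Sesn2, or 1 up under library totals). Under TMM these are 31.6% down and 8.77% up, against 11.4% each way over all genes. With the fold limit as the null hypothesis, 3 were called down and 1 up. With at least 10 counts required in each sample, 1 of 20 tested was called down and 3 up. Sesn1 (sestrin 1), a p53 target, fell from 31.1 ± 1.45 to 1.23 ± 0.447 CPM (log2-fold change −4.59, SE 0.38, adjusted p = 5.69e-15) and Parp1 from 32.1 ± 1.98 to 6.98 ± 3.04 CPM (log2-fold change −2.21, SE 0.28, adjusted p = 1.91e-09). Atm, the kinase that senses double-strand breaks, rose from 35.1 ± 7.38 to 128 ± 9.67 CPM (log2-fold change 1.86, SE 0.14, adjusted p = 5.37e-16), and Mdm2 from 47.6 ± 2.26 to 161 ± 14.2 CPM (log2-fold change 1.75, SE 0.13, adjusted p = 5.46e-17); under library totals these rises were 1.33 and 1.22, short of the fold limit. In the list of BCL2 family, caspases and death, 14 of 40 tested, of 48, were called up and 4 down (Bcl2, Bmf, Casp9 and Nlrp1b). The 35% called up lay above the 11.4% of all genes, and the 10% called down near it. Bmf, a pro-apoptotic BH3-only gene, had 33.3, 15.2 and 31.7 CPM in control cells and no count at 4 h, at least 36.3-fold lower. The anti-apoptotic Bcl2a1b rose from 146 ± 11.96 to 1339 ± 181 CPM (log2-fold change 3.19, SE 0.11, adjusted p = 4.64e-26), and Bcl2a1a, a near-identical copy whose reads cannot be cleanly parted from it, from 1.16 ± 1.14 to 108 ± 26.3 CPM. Nlrp3, the inflammasome sensor, rose from 11.6 ± 1.76 to 480.3 ± 22.97 CPM (log2-fold change 5.36, SE 0.14, adjusted p = 2.31e-34), and its relative Nlrp1b fell from 41.3 ± 2.12 to 4.47 ± 1.72 CPM (log2-fold change −3.20, SE 0.27, adjusted p = 2.42e-14). Mcl1 did not pass the test (log2-fold change 0.23, SE 0.09, adjusted p = 0.0245).

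Numbered zinc finger protein genes were called down more often than up. Of 200 tested, of 340, 37 were called down and 7 up (61 and 3 under library totals), with a median log2-fold change of −0.49. The 18.5% called down compare with 11.4% of all genes tested. With the fold limit as the null hypothesis, 9 were called down and 3 up. With at least 10 counts required in each sample, 1 of 87 tested was called down and 1 up, so the calls rest mostly on members of few counts. Zfp395 had 16.9, 26.3 and 22.3 CPM in control cells and no count at 4 h, at least 29.6-fold lower, and Zfp704 fell from 144 ± 12.1 to 6.97 ± 3.99 CPM (log2-fold change −4.32, SE 0.22, adjusted p = 4.46e-22). Zfp800 rose from 31.3 ± 1.25 to 299.6 ± 47.3 CPM (log2-fold change 3.26, SE 0.15, adjusted p = 1.05e-22).

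Genes of endoplasmic reticulum stress rose more often than they fell. Of 41 tested, of 42, 11 were called up (7 under library totals) and 1 down. Under TMM these are 26.8% and 2.44%, against 11.4% each way over all genes. Hspa5 (BiP), the chief chaperone there, rose from 255, 256 and 224 to 1090.4, 1238 and 1255 CPM (log2-fold change 2.29, SE 0.10, adjusted p = 6.52e-25), Atf4 from 136 ± 8.97 to 546 ± 25.1 CPM (log2-fold change 2.01, SE 0.11, adjusted p = 5.95e-22; 1.48 under library totals, short of the fold limit) and Asns (asparagine synthetase), a target of ATF4, from 18.5 ± 2.89 to 167 ± 6.70 CPM (log2-fold change 3.17, SE 0.15, adjusted p = 8.47e-24). Chac1 and Trib3, further targets of ATF4, rose by 4.35 (SE 0.33) and 3.04 (SE 0.29). Eif2ak3 (PERK), a kinase of the same response, was the gene called down, from 25.4 ± 2.48 to 5.90 ± 0.681 CPM (log2-fold change −2.10, SE 0.27, adjusted p = 2.27e-09), and Ddit3 (CHOP) did not pass the test (log2-fold change 0.64, SE 0.22, adjusted p = 0.0118). Of 74 ribosome biogenesis genes tested, of 79, 3 were called up (Noc4l, Rrs1 and Wdr43) and 1 down (Rrp1b), or 0 and 5 under library totals. Under TMM these are 4.05% and 1.35%, below the 11.4% of all genes called each way. Noc4l fell short at 1.38 without IFN-LPS 4 h replicate 1, and Wdr43 at 1.46 without control replicate 3 and 1.49 without IFN-LPS 4 h replicate 3. Rrp1b lost its call without 4 of the 6 libraries, and Fbl, Ncl and Nop56 stood at −0.07 (SE 0.21), −0.56 (SE 0.16) and 0.19 (SE 0.24) log2 units.

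**Figure D3:**
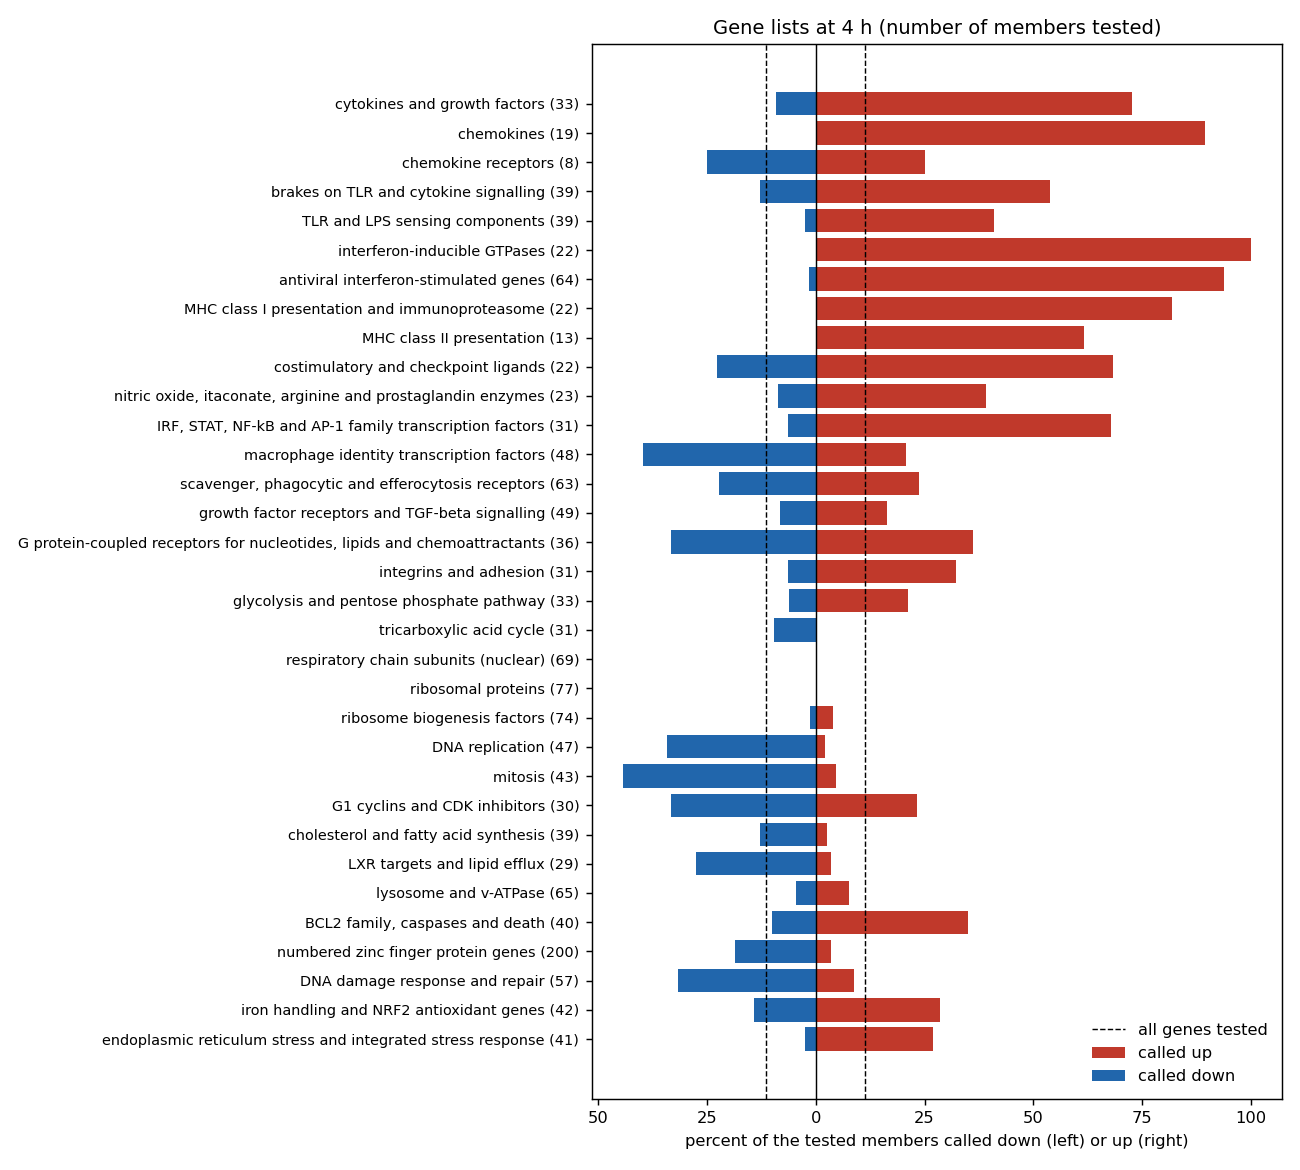
Percent of the tested members called up (red, to the right) and down (blue, to the left) for 33 gene lists, with the number tested in brackets; dashed lines mark 11.4% in each direction, the share of all genes tested. The interferon-inducible GTPases reach 100% up, and the mitosis list has the longest bar to the left, at 44.2%.

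Among the remaining genes with the steepest falls, Rasgrp3, an exchange factor for Ras, went from 28.3, 39.5 and 25.7 to 0, 0.695 and 0 CPM (log2-fold change −6.65, SE 0.55, adjusted p = 7.01e-15). Fam214a fell from 35.8 ± 3.03 to 0.244 ± 0.422 CPM, Rab3il1 from 35.1 ± 6.44 to 0.244 ± 0.422 CPM and Lrrc14b from 41.5 ± 2.77 to 0.495 ± 0.432 CPM, with log2-fold changes of −6.85 (SE 0.47), −6.82 (SE 0.51) and −6.22 (SE 0.44). Lhfpl2 had 710.1, 720.5 and 769 CPM in control cells and 37.2, 34.7 and 32.2 CPM at 4 h (log2-fold change −4.40, SE 0.12, adjusted p = 4.2e-34). Each of these 5 genes was lower in every 4 h library than in every control.

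The 4 h group was next set beside the other times of the same stimulus, which share these controls. Of the 1086 genes called up at 4 h, 728 (67.0%) had the highest of their 4 means at this time, 199 peaked later at 12 h and 83 at 24 h, and 76 had peaked at 1 h. Of the 1094 called down, 815 (74.5%) were lowest at 4 h; 12 h held the lowest mean of 170, 24 h of 85 and 1 h of 24. The genes were called at 4 h, which favours that time, and the shares are a description. Il27 was at 33.1, 29.7 and 45.99 CPM at 1 h, 2312, 2032 and 1934 CPM at 4 h and 175, 169 and 144 CPM at 12 h, a peak at 4 h. Tnf was already at 8148, 8396 and 9401 CPM at 1 h and Tnfsf9 higher at 1 h than at 4 h, with 642, 699 and 866 CPM against 213, 164 and 145 CPM. Nos2 was at 1.02, 0.583 and 1.38 CPM at 1 h and 402, 429 and 409.96 CPM at 12 h, where its samples overlapped those at 4 h. Some genes were higher later: Cfb went on to 1981, 2037 and 2035 CPM at 24 h and Lcn2, an iron-scavenging protein, from 29.3, 20.8 and 21.9 CPM at 4 h to 1020.4, 1156 and 1130.3 CPM.

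Repressed genes differed in how long they stayed low. Cxcr4 remained low at 9.47, 16.4 and 7.28 CPM at 12 h and 9.58, 11.4 and 15.1 CPM at 24 h, and Igf1 was lower still, at 65.2, 56.3 and 81.7 CPM at 12 h. Lhfpl2 was up again at 504, 523 and 489 CPM at 12 h. Hmox1, low at 4 h, reached 626, 623 and 829.8 CPM at 12 h, above each control library. Jun and Zfp36l1 were above the controls at 1 h and below them at 4 h: Jun stood at 192, 216 and 226 CPM and Zfp36l1 at 156, 166 and 159 CPM at 1 h. Zfp36, which did not pass the test at 4 h, had been at 676, 586 and 745 CPM at 1 h.

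**Figure D4:**
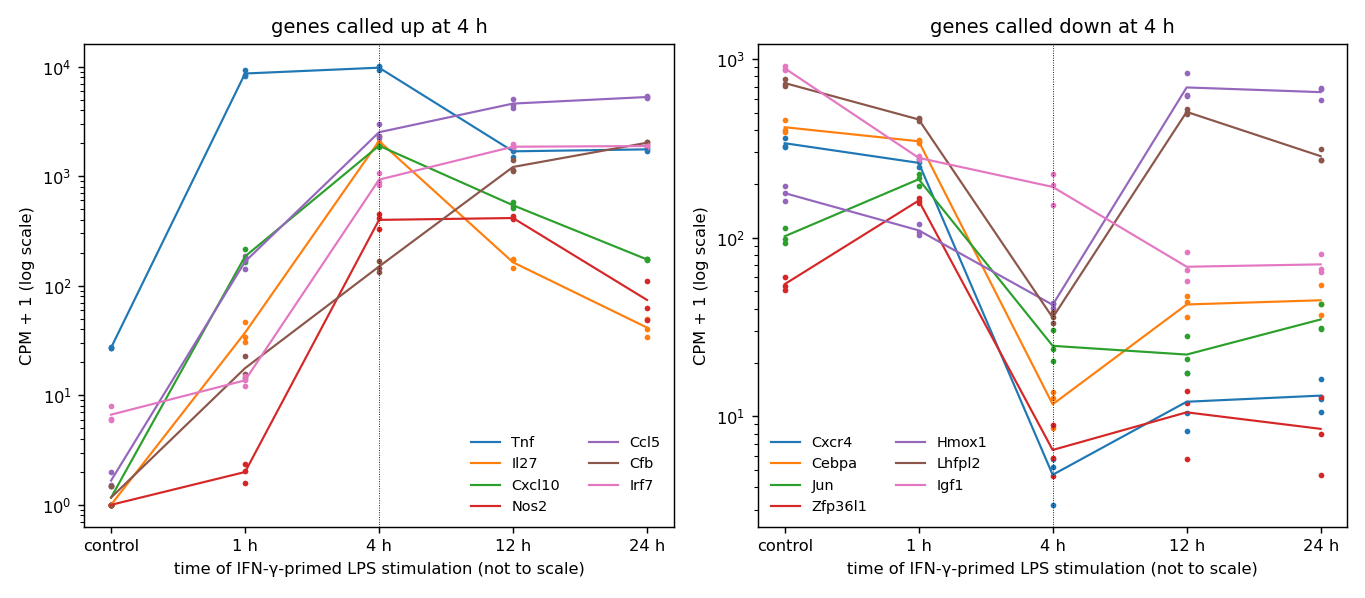
CPM + 1 (vertical axis, log scale) of 7 genes called up (left) and 7 called down (right) at 4 h, in control BMDMs and at 1, 4, 12 and 24 h of IFN-γ-primed LPS stimulation (horizontal axis, not to scale); points are the 3 libraries of each time, lines join group means, and the dotted line marks 4 h. Il27 peaks at 4 h, Ccl5 and Cfb are higher at 24 h, and Hmox1 and Lhfpl2 are higher at 12 h than at 4 h.

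The 4 h response was last compared with that of RAW264.7 cells, a mouse macrophage line transformed by Abelson leukaemia virus, of which the series holds 2 control libraries and 2 libraries given LPS at 100 ng/ml for 4 h without IFN-γ. Per the study, the line comes from BALB/c mice and was grown in RPMI medium, with no M-CSF named. The BMDMs came from C57BL/6 mice and were grown in DMEM with M-CSF. Cell type, mouse strain, culture medium and IFN-γ therefore differ together and cannot be told apart. In an edgeR fit of these 10 samples with 10269 genes tested, the response was higher in BMDMs for 759 genes (7.39%) and lower for 591 (5.76%) at an FDR of at most 0.01 and a difference of at least 1.5 log2 units. Of the 1125 genes called up in BMDMs in this fit, 218 (19.4%) were also called up in RAW264.7 cells and 654 had the higher response in BMDMs; of the 1150 called down, 114 (9.91%) were called down in RAW264.7 cells and 423 had the lower response. Over all genes tested, 3.28% were called up and 1.90% down in RAW264.7 cells. CPM from this fit are on its own TMM scale and differ slightly from those above. The precision differs, with 3 libraries a group in BMDMs and 2 in RAW264.7 cells.

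Most antiviral interferon-stimulated genes and most class I presentation genes responded more strongly in BMDMs. The response was higher in BMDMs for 56 of 66 antiviral genes, 18 of 22 class I genes and 10 of 22 interferon-inducible GTPases, and lower for none of them. The list medians were 4.72, 3.07 and 7.69 in BMDMs and 0.97, 0.18 and 0.58 in RAW264.7 cells. Of 18 chemokines, 11 were called up in RAW264.7 cells, and 4 had the higher response in BMDMs. Ifi205, an interferon-inducible DNA sensor family gene, was at 1389, 1617 and 1423 CPM in stimulated BMDMs and 0 and 0 CPM in stimulated RAW264.7 cells, Tgtp2 at 408, 382 and 367 CPM against 0 and 0 CPM, and Tnfsf10 (TRAIL) at 152, 155 and 146 CPM against 0 and 0 CPM. Stimulated RAW264.7 cells had no count of any of the 3.

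Some genes had the lower response in BMDMs. Lif, the leukaemia inhibitory factor, rose in both kinds of cell. It went from no count to 541 and 563 CPM in RAW264.7 cells and from 0.552, 2.25 and 1.10 to 29.4, 23.3 and 16.9 CPM in BMDMs. The difference of responses was fitted at −9.00 (SE 1.33, adjusted p = 3.3e-09 by edgeR's quasi-likelihood test). As the RAW264.7 controls held no count of Lif, that value depends on the small count edgeR adds. Cd300lb fell in BMDMs from 302, 299 and 252 to 1.84, 0.804 and 1.69 CPM and was at 192 and 187 CPM in control and 233 and 254 CPM in stimulated RAW264.7 cells, a difference of −7.94 (SE 0.29, adjusted p = 9.2e-59). Il16 was lost from BMDMs and stood at 39.97 and 39.6 and, with LPS, 31.3 and 40.7 CPM in RAW264.7 cells. Both genes were present at rest in either kind of cell. Of 47 macrophage transcription factor genes 12 had the lower and 6 the higher response in BMDMs, and of 72 mitosis genes 14 had the lower and 4 the higher.

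**Figure D5:**
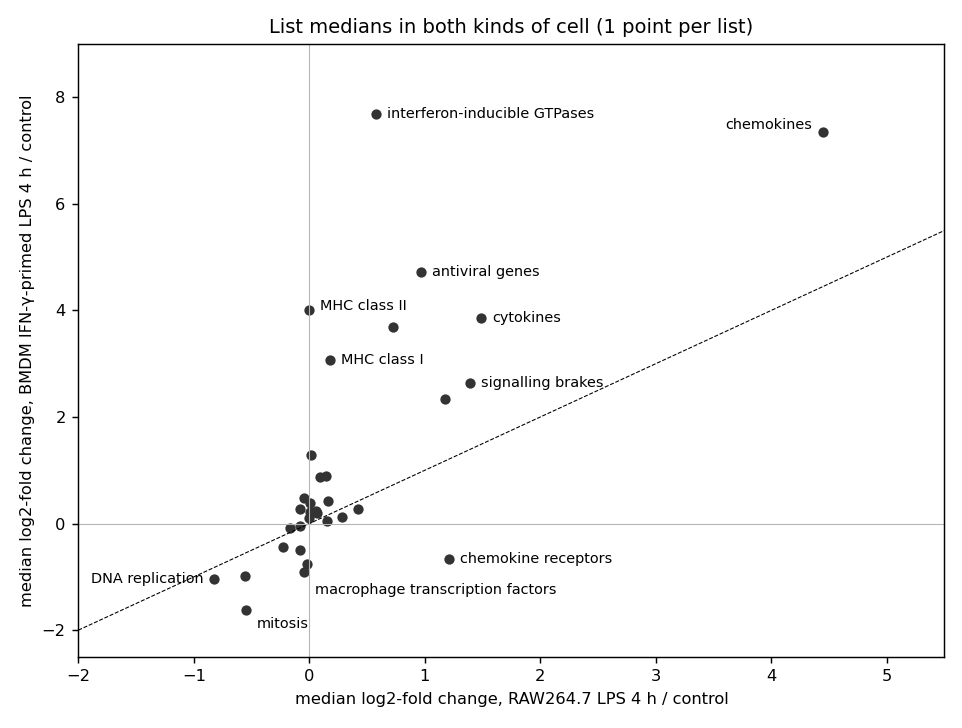
Median log2-fold change of each of 33 gene lists in BMDMs with IFN-γ-primed LPS for 4 h (vertical axis) by that in RAW264.7 cells with LPS for 4 h (horizontal axis); 1 point per list, the dashed line marks equal medians. Interferon-inducible GTPases lie at 7.69 in BMDMs and 0.58 in RAW264.7 cells, and chemokines at 7.35 and 4.44.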

How the data were processed

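RNA-seq was compared between 3 control and 3 IFN-γ-primed LPS-stimulated (4 h) BMDM libraries. The authors trimmed reads with Trimmomatic, aligned them to mm10 and counted uniquely mapped reads per gene with STAR; the deposited counts are raw, and the sense-strand column was used. Per the labels the molecule was polyA RNA, while the protocol describes depletion of ribosomal RNA. Rn45s was removed (27.4 to 38.1% of counts), which left 1502618 to 1796271 counts a library; counting error limits the precision of genes at a few CPM, which rest on a few counts a library. No replicate pair agreed within sampling noise (chi-square per degree of freedom 1.54 to 4.14).

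Counts were fitted with edgeR 4.0.16 (R 4.3.3; TMM, filterByExpr, robust quasi-likelihood) over the 15 libraries of the BMDM time course with 1 mean per group, and over 10 libraries for the difference of responses with RAW264.7 cells; p-values were adjusted by Benjamini-Hochberg over all genes tested. A gene was called when it moved by 1.5 log2 units or more with an FDR not above 0.01, the limits the study used. Of 24411 gene symbols 9568 were tested. CPM use the TMM-scaled library size. The fits were tested on simulated data with known changes. A fold against a group with no count was computed against a floor of 3 counts over that group. The 34 gene lists were written by textbook function, and the members and lists were chosen with earlier results of these data known; no set test was run. Genes are named that had the largest changes with no overlap between groups and at least 20 CPM in the higher group (the 10 largest and the 10 smallest log2-fold changes), the 6 largest rises and falls in CPM among called genes, preset key members of each list, up to 3 called members per list and direction, the 5 largest differences from RAW264.7 cells either way, and the members of most counts of 5 or fewer; some genes, and 1 of the lists, are not reported here. Promoters came from RefSeq (GRCm38.p6); 7761 of the 9568 genes matched by symbol. Alternatives were DESeq2 1.42.0, other scalings and filters, unstranded counts, Rn45s kept, the 6 libraries alone, a replicate block, the fold limit as null hypothesis, and leaving out each library. BMDM libraries with LPS alone were not analysed here.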

Additional observations from a re-analysis of the deposited data

Results flagged for a closer look

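The response at 4 h differed between BMDMs given IFN-γ and LPS and RAW264.7 cells given LPS alone for 759 genes with the higher response in BMDMs and 591 with the lower, by the edgeR test of the difference itself (FDR at most 0.01, 1.5 log2 units or more). Cell type, mouse strain, culture medium and IFN-γ cannot be told apart in these groups. Among these genes, of those with at least 20 CPM in a group, the largest differences with the higher response in BMDMs were fitted for Tgtp2 (14.51 log2 units), Ifi205 (13.68), Gfi1 (12.34), Tnfsf10 (11.19) and Gem (10.66). The largest with the lower response were fitted for Lif (−9.00), Il16 (−8.11), Cd300lb (−7.94), Zfp395 (−7.72) and Bmf (−7.35). Each of these genes other than Cd300lb had no count in any library of at least 1 of the 4 groups, so its fitted value depends on the small count edgeR adds. RAW264.7 cells held little Zfp395 and Bmf at rest, with 2.10 and 0.733 CPM and 4.56 and 3.30 CPM, so a fall there could hardly be measured at this depth. Gem, a small GTPase of the RGK family, rose in BMDMs from no count to 82.8, 87.6 and 91.5 CPM and stood at 0.351 and 1.47 CPM in control and 1.22 and 0.354 CPM in stimulated RAW264.7 cells. Groups of 2 or 3 libraries are too small for a test of single outlying samples.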

How the results depend on the processing

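Scaling, the low-count filter and the treatment of the fold limit moved counts of calls by over 1.5 times. Under library totals 1914 genes were called down, 1487 rose and 4641 fell at any size, and Pcna (−0.14), Rplp0 (−0.0223) and Rps6 (−0.11) turned from above to below 0; the shift of all genes by 0.53 log2 units accompanies this change by construction. With at least 10 counts required in each sample, which removes genes absent from 1 group, 624 genes were called up and 336 down, and 465 had the higher and 217 the lower response against RAW264.7 cells. With the fold limit as the null hypothesis 407 genes were called down. Without any 1 library, 1101 to 1117 genes were called up, 1044 to 1124 down, 2349 to 2413 rose and 2075 to 2258 fell, and against RAW264.7 cells 703 to 765 genes had the higher and 506 to 613 the lower response. DESeq2 called 1153 up and 983 down. Of 226 named genes, 225 kept their direction and call with DESeq2, 211 under library totals and 197 with the fold limit as null; 102 had no value at 10 counts in each sample. A replicate block gave 1086 up, 1100 down, 2522 risen and 2496 fallen genes, and 758 and 568 against RAW264.7 cells; same-numbered control and 4 h libraries correlated in their deviations at 0.0616, 0.0810 and 0.0312, so the numbers were not taken to pair the libraries, although each library correlated best with its own number. At 1502618 to 1796271 counts a library, a fall could be measured only for genes with more than a few counts in control cells.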

Other observations

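The regulators that oppose MYC changed in both directions. Mxd1, a repressor that competes with MYC for MAX, rose from 12.4, 10.6 and 17.8 to 96.5, 81.99 and 64.3 CPM (log2-fold change 2.56, SE 0.20, adjusted p = 7.5e-15), while its relatives Mxd4 and Mnt fell from 25.3 ± 4.35 to 3.88 ± 1.46 CPM (log2-fold change −2.67, SE 0.31, adjusted p = 2.01e-10) and from 20.5 ± 0.750 to 1.46 ± 0.703 CPM (log2-fold change −3.74, SE 0.45, adjusted p = 5.05e-10). The CDK inhibitor genes Cdkn1c (p57) and Cdkn2c (p18) fell from 27.9 ± 8.50 to 3.50 ± 1.79 CPM and from 8.66 ± 2.25 to 1.72 ± 0.419 CPM, at −2.99 (SE 0.36) and −2.29 (SE 0.50) log2 units, opposite to Cdkn1a. Ccne1 and Ccne2, which encode the E cyclins, moved apart, with Ccne1 at 2.89 (SE 0.28) and Ccne2 at −2.72 (SE 0.49) log2 units.

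Lars2, the gene of the mitochondrial leucyl-tRNA synthetase, held the most counts after Rn45s in both groups, at 91932 CPM in control cells and 107886 CPM at 4 h, and did not pass the test (log2-fold change 0.23, adjusted p = 0.0186). Mir6236 was next, at 39681 and 39657 CPM. Both entered the library totals in all fits. Such a level is unusual for Lars2, and which RNA the reads at these loci came from was not tested.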
